A study of Mus musculus with 6 samples.

Results

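The 7 genes Kcnj8, Abcc9, Rgs5, Higd1b, Ndufa4l2, Cox4i2 and Art3 were followed through the cell classes of the mouse cortical surface and of the dura and skull. They were chosen by symbol, with earlier results of these data known. They are 7 of the 31053 genes in the single-cell matrices, and every one of them was present there under a single gene identifier. All 7 passed the detection filter of each comparison between mural classes described here. The tissue came from adult C57BL6 mice (the only genotype in the series) of either sex, pooled across several animals for each library. The 4 cortical surface-associated libraries (tissue labelled Brain) and the 2 bone-associated libraries (tissue labelled Dura/Skull) were made from live cells sorted as DRAQ5-positive and propidium iodide-negative and sequenced as 10x Chromium 3' libraries. A library is thus a pool of animals and a level is an average over them. The study describes an enzymatic digestion of these tissues, whereas the extraction protocol in the labels names another brain region, and the text here follows the former. By the study's account, bone-associated tissue was dissected off the skull and chopped, while the cortex was glued down and its surface digested and washed. Differences between the preparations in anatomy therefore cannot be told apart from those in dissection and dissociation. Nothing in the labels tells which animals or days the libraries share, so p-values measure the spread between libraries only.

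Pericytes are the mural cells of capillaries, embedded in the basement membrane beside the endothelium, whereas vascular smooth muscle cells (VSMCs) wrap arteries and veins. Both set vessel tone, and the ATP-sensitive potassium channel is one of the means: it opens when ATP falls or when adenylyl cyclase is stimulated, and so hyperpolarises the cell. Kcnj8 encodes its pore-forming inward rectifier subunit and Abcc9 the sulfonylurea receptor that regulates the pore. Rgs5 encodes a regulator of G protein signalling that shortens the signal of vasoconstrictor receptors. Cox4i2, Ndufa4l2 and Higd1b encode mitochondrial proteins with more widely expressed paralogues (Cox4i1, Ndufa4 and Higd1a). Cox4i2 and Cox4i1 are isoforms of a subunit of cytochrome c oxidase, and Ndufa4l2 is a known target of hypoxia-inducible factor. Art3 encodes a membrane-anchored member of the mono-ADP-ribosyltransferase family.

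The 2 channel genes are neighbours. Kcnj8 lies at chr6:142564837-142571614 and Abcc9 at chr6:142587862-142702315, both on the minus strand (GRCm38.p6, GENCODE annotation), with 16247 bases and no annotated gene between them. Rgs5 is on chromosome 1 (169655501 to 169695813), Cox4i2 on chromosome 2 (152754173 to 152765037), Art3 on chromosome 5 (92331827 to 92414628), Ndufa4l2 on chromosome 10 (127514967 to 127517154) and Higd1b on chromosome 11 (102835849 to 102838040), all on the plus strand. Abcc9 overlaps 5330439B14Rik, Ndufa4l2 overlaps Shmt2 and Art3 overlaps Cxcl10 and Cxcl11 on the opposite strand, and Art3 overlaps Gm2673 on the same strand. Whether the counting used strand is not given in the sources used here, so such reads cannot be told apart with certainty.

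RefSeq promoter windows (250 bases before to 50 after a start) were at hand for 4 of the 7 genes. The windows of the 2 channel genes, which follow each other across the mural classes, and of Rgs5, which does not follow them, are given 5′ to 3′ on the strand of the gene. Capitals mark TGGGAA, the core of the site of RBPJ, the DNA-binding partner of Notch.
Kcnj8, chr6:142571565-142571864, minus strand: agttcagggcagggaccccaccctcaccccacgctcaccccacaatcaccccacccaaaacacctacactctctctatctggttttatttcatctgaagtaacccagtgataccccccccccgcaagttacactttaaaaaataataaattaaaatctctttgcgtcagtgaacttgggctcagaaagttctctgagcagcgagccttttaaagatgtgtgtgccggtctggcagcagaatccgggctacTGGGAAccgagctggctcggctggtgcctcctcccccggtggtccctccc
Abcc9, chr6:142702225-142702524, minus strand: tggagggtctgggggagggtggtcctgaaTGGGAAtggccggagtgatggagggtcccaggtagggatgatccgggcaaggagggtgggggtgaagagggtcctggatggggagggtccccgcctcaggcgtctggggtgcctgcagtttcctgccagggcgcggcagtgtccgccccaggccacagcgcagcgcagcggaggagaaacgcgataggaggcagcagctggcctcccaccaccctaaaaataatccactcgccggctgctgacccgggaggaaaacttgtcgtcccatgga
Rgs5, chr1:169655251-169655550, plus strand: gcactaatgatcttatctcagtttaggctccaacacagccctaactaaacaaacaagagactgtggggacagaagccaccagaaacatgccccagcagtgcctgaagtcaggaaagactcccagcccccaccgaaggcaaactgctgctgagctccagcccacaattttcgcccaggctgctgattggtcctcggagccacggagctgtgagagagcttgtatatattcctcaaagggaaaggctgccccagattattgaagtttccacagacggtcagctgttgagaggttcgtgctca

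TGGGAA was searched on both strands, where it reads TTCCCA on the other, and occurred once in the window of Kcnj8 and once in that of Abcc9, but not in that of Rgs5. It occurred in 25.6% of the 32851 RefSeq promoter windows of the same length, so a match in a single window is common. The core of the hypoxia response element, ACGTG, also searched on both strands, was in none of these 3 windows and in 19.6% of all windows. Of the 3 annotated starts of Art3, 1 held TGGGAA and another held ACGTG. The motifs can overlap by the letters TG, but no window of these genes held both. The windows of Kcnj8, Abcc9 and Rgs5 held 9, 16 and 6 CpG dinucleotides, against a median of 7 over all windows.

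After filtering, 8680 cells remained, 5272 from the cortical surface and 3408 from bone-associated tissue, with 739 to 2452 cells per library and a median of 5453 to 9525 unique molecular identifiers (UMIs, which count captured RNA molecules) per cell. Cortical surface libraries 3 and 4 stood apart: hemoglobin genes held 84.581% and 71.911% of all their UMIs and 17.895% and 11.754% of those of their kept cells, against at most 0.527% of the kept cells' UMIs in the other libraries. Each preparation was clustered without the 7 genes, and clusters were called "-like" a cell type from markers that do not include them. No 2 libraries shared more than 2 barcodes among the kept cells (at most 9 among all barcodes). This gave 1435 mural cells. They were pericyte-like cells (229 from the cortical surface, 79 from bone), a Ccl19-positive mural class (249 and 112), VSMC-like cells (263 and 269), and a class named here Casq2-positive for its leading genes Casq2 and Olfr558 (82 and 152), which carried markers of both pericytes and VSMCs and was named after its values were seen. Each class was a single cluster in each preparation. VSMC-like cells of the cortical surface came from libraries 1 and 2 alone, and the Casq2-positive class had only 5 cells in library 3, which was left out of its values.

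The pericyte-like clusters of the preparations differed in markers of their own and of other cell types. All 10 pericyte markers had a UMI in the bone-associated one. Vtn, Enpep and Pdgfrb were among those that set it apart from the other bone-associated cells, but they also set apart the bone-associated Ccl19-positive class. Others of the 10, Gper1 and Slc19a1 among them, set apart the cortical surface pericyte-like cells but not the bone-associated ones. The summed level of the 10 markers was 3640 to 4440 CPM in the bone-associated pericyte-like cells (UMIs scaled to an equal total for each library and class). This overlapped the 3440 to 3700 CPM of the bone-associated Ccl19-positive class. In the 4 cortical surface libraries the pericyte-like cells held 11000 to 16500 CPM. VSMC markers summed to 2130 to 3160 CPM in the bone-associated and 953 to 1150 CPM in the cortical surface pericyte-like cells, with 7 of 8 detected in each, and mesenchymal markers to 2000 to 2280 CPM against 637 to 1010 CPM, with Serpinf1 and Lum at 0 on the cortical surface. Endothelial markers were higher in some cortical surface libraries, at 277 to 933 CPM against 108 to 344 CPM in bone, where Cldn5, Cdh5 and Ly6c1 were at 0 and 5 of 8 were detected. Border macrophage markers summed to 66.1 to 950 CPM on the cortical surface and 25.3 to 27.0 CPM in bone, with Pf4, F13a1 and Stab1 at 0 in bone. In the Ccl19-positive class VSMC markers summed to 11100 to 16100 CPM in bone and 2820 to 5630 CPM on the cortical surface, and mesenchymal markers to 4530 to 6780 against 1460 to 1950 CPM. The part of these markers in the differences between preparations given below was not tested.

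Levels below are CPM of the UMIs summed over the cells of a class in a library. Each gene is compared between classes and libraries, and so is the share of a gene in the summed UMIs of a pair. Values of differing genes in the same cells are set side by side without a comparison of their levels. A difference was called where edgeR's quasi-likelihood test on these sums, adjusted over all tested genes by Benjamini-Hochberg ("edgeR adjusted p"), gave under 0.05 and the log2 difference was at least 1.3 in size. Classes were set apart by other genes of the same cells, many of which vary with these 7, so p-values between classes are smaller than those of an independent sorting would be.

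Against VSMC-like cells, all 7 genes were higher in pericyte-like cells in each of the 4 libraries that held both, and all 7 were called, where 16.0% of 8162 tested genes were called in either direction. The genes were chosen with earlier results known, and the study itself used Rgs5 and Kcnj8 as pericyte markers. The count of calls among them is therefore a description, not independent support. The log2 differences ran from 6.90 for Kcnj8 to 2.17 for Cox4i2. Against the Ccl19-positive class, 4 of the 7 (Cox4i2, Art3, Higd1b and Abcc9) were called higher in pericyte-like cells, where 5.18% of 7466 genes were called. Against the Casq2-positive class, Kcnj8, Abcc9 and Art3 were called higher, where 7.67% of 7683 genes were called. Between the Casq2-positive class and VSMC-like cells, 5 of the 7 were called higher in the former (all but Kcnj8 and Abcc9), where 4.58% of 8163 genes were called. The genes thus fell into differing orders along the mural classes, as the plot of levels relative to pericyte-like cells shows.

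**Figure D1:**
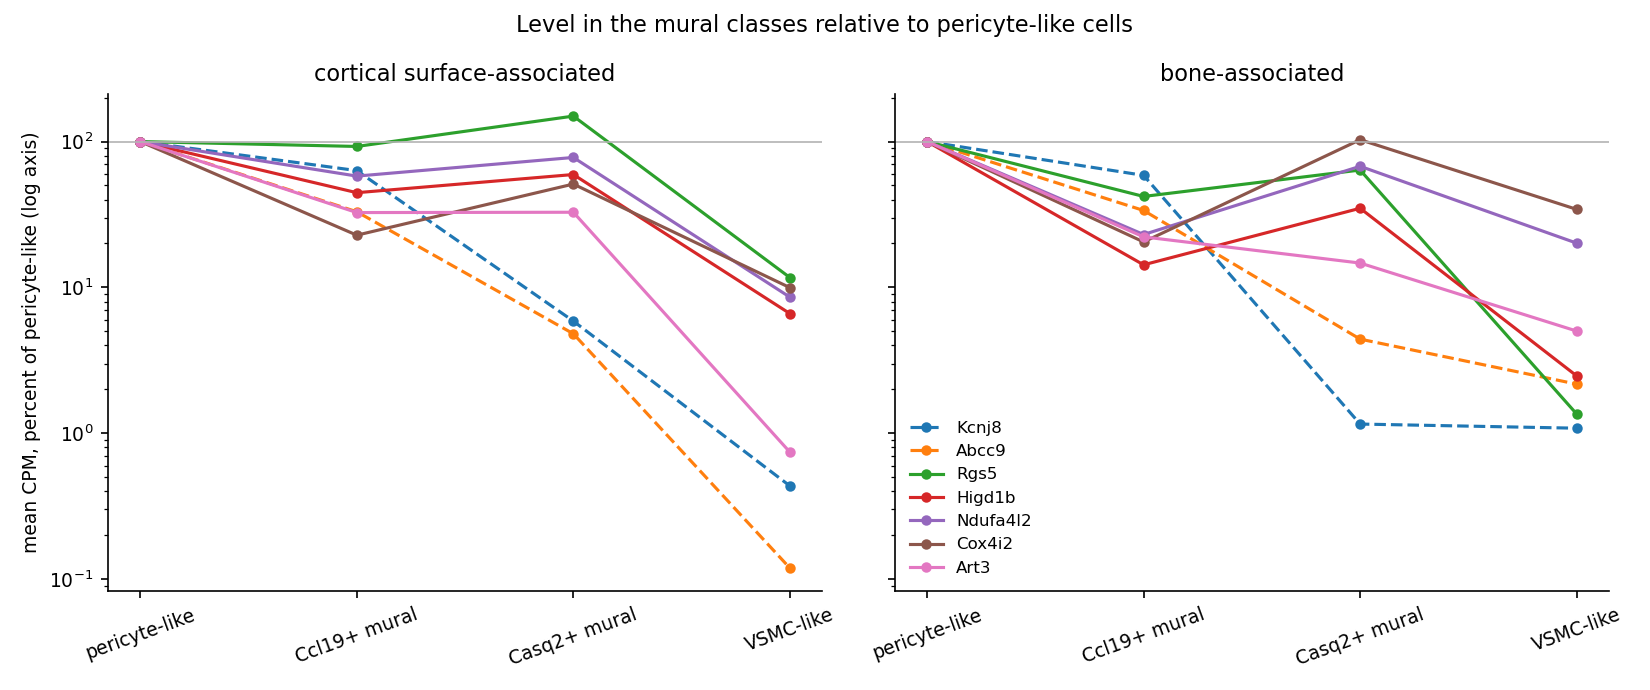
Mean level of each gene in 4 mural classes as a percent of its mean level in pericyte-like cells (log axis), for the cortical surface-associated (left) and bone-associated (right) libraries, with dashed lines for the 2 channel genes. Kcnj8 and Abcc9 fall below 6% in the Casq2-positive class, where Rgs5 stands at 150% (left) and 63.8% (right). The lowest Abcc9 point rests on 3 UMIs of 1 cell.

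The pore subunit Kcnj8 was highest in pericyte-like cells, at 1328, 1474, 1286 and 1263 CPM in cortical surface libraries 1 to 4 and 898.8 and 939.1 CPM in the 2 bone-associated libraries. The Ccl19-positive class held 672.6, 914.9, 792.9 and 1004 CPM on the cortical surface and 319.7 and 758.3 CPM in bone. Every pericyte-like value lay above every Ccl19-positive value of its preparation. In the Casq2-positive class the level was 41.42, 72.7 and 121.6 CPM in cortical surface libraries 1, 2 and 4 and 5.65 and 15.6 CPM in bone. VSMC-like cells held 10.18 and 1.461 CPM on the cortical surface and 6.106 and 13.79 CPM in bone. The ranges of the Casq2-positive and VSMC-like classes overlapped in bone but not on the cortical surface.

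Kcnj8 was 6.90 ± 0.44 log2 units (SE, n = 4 libraries) higher in pericyte-like than in VSMC-like cells (edgeR adjusted p = 3.45e-07) and 4.91 ± 0.33 (n = 5) higher than in the Casq2-positive class (edgeR adjusted p = 2.25e-08). Its difference from the Ccl19-positive class, 0.65 ± 0.14 (n = 6), had an edgeR adjusted p of 0.00423 but did not reach the fold limit. The Casq2-positive class exceeded VSMC-like cells by 1.66 ± 0.63 (n = 4), which did not pass (edgeR adjusted p = 0.111). It did pass without the detection filter (1.575, edgeR adjusted p = 0.000244) and without bone-associated library 2 (2.497, edgeR adjusted p = 0.0335). Counted per cell after thinning each cell to 1500 UMIs, 79.7% of the cortical surface pericyte-like cells (exact 95% interval 73.8% to 84.8%; 93.9% before thinning) and 66.7% of those from bone held a Kcnj8 UMI. The Ccl19-positive shares were 74.1% and 63.4%, the VSMC-like shares 0.383% and 2.62%. B cell-like cells, which should lack the gene, gave 0.274% on the cortical surface and 0 of 381 cells in bone, at median depths of 3825.5 and 4840 UMIs against 3742 and 6006 in pericyte-like cells. Intervals on shares of cells cover counting error only.

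The sulfonylurea receptor gene Abcc9 followed the pore gene across classes. It stood at 1207, 808.3, 915.1 and 739.7 CPM in the cortical surface pericyte-like cells and at 1825 and 855.5 CPM in bone. The Ccl19-positive class held 294.8, 206, 382 and 328.7 CPM, and 467.7 and 435 CPM in bone, all below the pericyte-like values. The 2 bone-associated pericyte-like values lay far apart and came from 18 and 61 cells. The Casq2-positive class held 31.07, 26.44 and 74.82 CPM, and 80.98 and 37.44 CPM in bone. In VSMC-like cells only 3 UMIs, all in 1 cell, were found in cortical surface library 1 and none in library 2 (2.181 and 0 CPM), against 56 and 40 UMIs in bone (34.19 and 23.98 CPM). Of the 4 mural classes the pericyte-like one was thus the highest in both preparations and the VSMC-like one the lowest.

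Abcc9 exceeded the VSMC-like level by 6.33 ± 0.63 log2 units (SE, n = 4; edgeR adjusted p = 9e-06), the Casq2-positive level by 4.39 ± 0.22 (n = 5; edgeR adjusted p = 7.61e-10) and the Ccl19-positive level by 1.48 ± 0.16 (n = 6; edgeR adjusted p = 3.02e-06). With cells thinned to 1500 UMIs the last difference was 1.25 and fell under the fold limit. Casq2-positive cells exceeded VSMC-like cells by 1.31 ± 0.46 (n = 4), with an edgeR adjusted p of 0.0782, which passed under 4 of the other settings, DESeq2 among them (2.30, adjusted p = 0.015).

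Both channel genes were found together in 51.8% of thinned cortical surface pericyte-like cells (115 of 222) and 56.4% of those from bone (44 of 78). In the Ccl19-positive class the shares were 25.1% and 23.2%, in the Casq2-positive class 4.88% and 0.658%, and no thinned VSMC-like cell held both. Taken singly, Kcnj8 was in 79.7% and 66.7% and Abcc9 in 64.4% and 73.1% of the thinned pericyte-like cells. Whether the 2 genes met more often than these shares alone would give was not tested. Of the Ccl19-positive cells, 121 on the cortical surface and 45 in bone held Kcnj8 alone, and 30 and 19 held Abcc9 alone. The paralogous pair of the pancreatic beta cell and neuronal channel was almost absent: no Kcnj11 UMI and 1 Abcc8 UMI were counted in all pericyte-like cells. Kcnj11 was also at 0 in every Ccl19-positive library. The bone-associated Casq2-positive cells held 5 Kcnj11 and 7 Abcc8 UMIs, and the bone-associated VSMC-like cells 2 of each. Outside the mural classes the pair was scarce as well, and the neuron-like class of the cortical surface held 1 Abcc8 UMI. The scarcity of the pair thus does not set the pericyte-like cells apart.

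The proportion of the 2 channel transcripts differed between preparations. Abcc9 made up 47.6%, 35.4%, 41.6% and 36.9% of their summed UMIs in cortical surface pericyte-like cells and 67.0% and 47.7% in those from bone, and the ranges did not overlap, although the highest cortical surface value and the lowest bone value lay close together. In the Ccl19-positive class the share was 18.4% to 32.5% on the cortical surface and 59.4% and 36.5% in bone. In VSMC-like cells it was 17.6% and 0% against 84.8% and 63.5%, and in Casq2-positive cells 26.7% to 42.9% against 93.5% and 70.6%, on at most 66 UMIs of the pair in any of these libraries. No test of the share itself was run. With 4 libraries against 2, an exact permutation test of a single value could not pass 0.05.

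**Figure D2:**
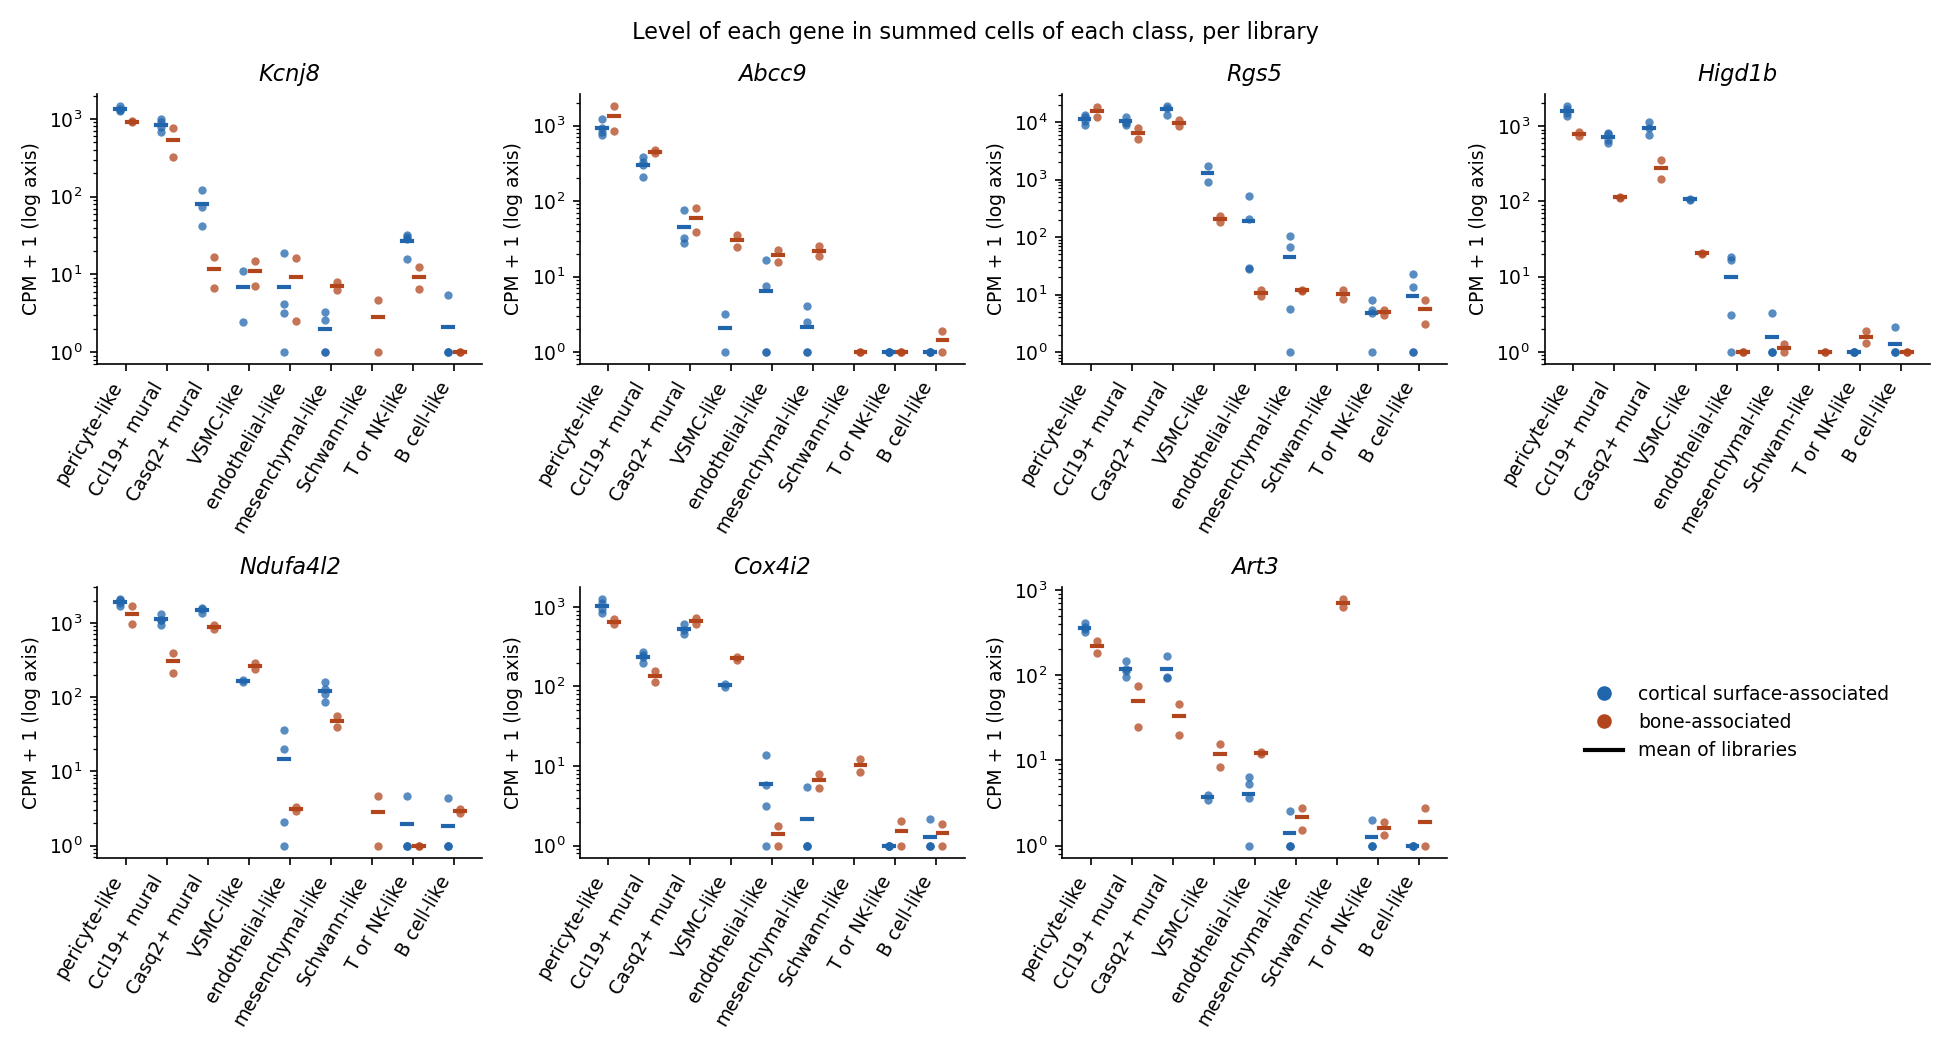
Level of each gene in CPM + 1 (log axis) in 9 cell classes, with a point for each library of at least 10 cells of the class and a bar for the mean, in blue for cortical surface-associated and in red for bone-associated libraries. All 7 genes are at their highest in the mural classes on the left except Art3, whose highest points are the Schwann-like cells at 632.1 and 773.4 CPM.

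Rgs5 had another order. Pericyte-like cells held 13260, 8788, 10530 and 12190 CPM on the cortical surface and 18450 and 12130 CPM in bone. The Ccl19-positive class held 12390, 9050, 10220 and 9786 CPM, within the range of the pericyte-like cells, and 7729 and 5127 CPM in bone, below it. Casq2-positive cells held 19170, 13500 and 17510 CPM on the cortical surface, all above the pericyte-like values, and 10990 and 8519 CPM in bone, below them. VSMC-like cells held 1718 and 895.9 CPM on the cortical surface and 233.2 and 181 CPM in bone. The highest class was therefore the Casq2-positive one on the cortical surface and the pericyte-like one in bone.

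Rgs5 was 4.28 ± 0.59 log2 units (SE, n = 4) higher in pericyte-like than in VSMC-like cells (edgeR adjusted p = 0.000135), and Casq2-positive cells exceeded VSMC-like cells by 4.43 ± 0.31 (n = 4; edgeR adjusted p = 3.22e-07). Its differences between pericyte-like cells and the Ccl19-positive (0.40 ± 0.16, n = 6; edgeR adjusted p = 0.142) or Casq2-positive class (-0.19 ± 0.21, 95% interval -0.64 to 0.25, n = 5; edgeR adjusted p = 0.658) did not pass. The fit against the Casq2-positive class pooled both preparations, in which the classes stood in opposite order, without a term for the preparation. Its small value thus does not mean like levels within either preparation. After thinning, Rgs5 was detected in 100% and 97.4% of pericyte-like, 99.6% and 89.3% of Ccl19-positive, 100% and 93.4% of Casq2-positive, and 52.1% and 15% of VSMC-like cells (cortical surface and bone).

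Among the mitochondrial genes, Cox4i2 was at 1246, 1110, 845.6 and 935.6 CPM in cortical surface pericyte-like cells and at 602.2 and 706.2 CPM in those from bone. Casq2-positive cells held 512.6, 456 and 617.3 CPM and, in bone, 732.6 and 614.7 CPM. The Ccl19-positive class held 246.8, 233.8, 194.6 and 268 CPM, and 113.7 and 154.5 CPM in bone. VSMC-like cells held 107.6 and 98.41 CPM on the cortical surface and 215.5 and 233.2 CPM in bone, so that in bone they lay above the Ccl19-positive class and on the cortical surface below it. In bone the pericyte-like and Casq2-positive ranges overlapped, and on the cortical surface they did not.

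Cox4i2 exceeded the Ccl19-positive level by 2.10 ± 0.13 log2 units (SE, n = 6; edgeR adjusted p = 6.51e-09), which was the smallest adjusted p of the 7 genes in that comparison. The excess over VSMC-like cells was 2.17 ± 0.35 (n = 4; edgeR adjusted p = 0.000496) and that over Casq2-positive cells 0.51 ± 0.21 (n = 5; edgeR adjusted p = 0.136), which did not pass. Its widely expressed paralogue Cox4i1 had means of 876.6 and 739.5 CPM in pericyte-like and 895.7 and 854.6 CPM in VSMC-like cells, with 672.0 and 538.5 CPM in the Ccl19-positive class. Of the UMIs of the pair, Cox4i2 held 45.6% to 63.1% in the cortical surface pericyte-like cells and 44.4% and 49.4% in bone, 9.6% and 11.1% in the cortical surface VSMC-like cells and 21.0% and 20.6% in bone, and 22.5% to 29.5% against 18.4% and 21.2% in the Ccl19-positive class. The Casq2-positive class, at 39.8% to 42.0% and 43.0% to 49.1%, lay nearest to the pericyte-like cells.

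Ndufa4l2 stood at 2034, 1867, 1703 and 2077 CPM in cortical surface pericyte-like cells and at 952.7 and 1673 CPM in bone. Casq2-positive cells held 1351, 1523 and 1609 CPM, and 836.1 and 941.3 CPM in bone. These lay below all pericyte-like values of their preparation. The fitted excess of pericyte-like over Casq2-positive cells was 0.35 log2 units, under the fold limit, and did not pass with DESeq2 either (0.34, adjusted p = 0.507). The Ccl19-positive class held 928.1, 1100, 1096 and 1328 CPM on the cortical surface but only 208.1 and 397 CPM in bone. VSMC-like cells held 160.6 and 168.6 CPM, and 241.8 and 286.5 CPM in bone. On the cortical surface the Ccl19-positive range lay between those of pericyte-like and VSMC-like cells and overlapped neither, whereas in bone it overlapped that of VSMC-like cells.

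Ndufa4l2 was 2.56 ± 0.29 log2 units (SE, n = 4) higher in pericyte-like than in VSMC-like cells (edgeR adjusted p = 2.44e-05). The excess over the Ccl19-positive class, 1.14 ± 0.18 (n = 6), had an edgeR adjusted p of 0.000251 but stayed under the fold limit, and reached 1.39 with the 2 hemoglobin-rich libraries left out. The paralogue Ndufa4 ran the other way and was 5.03 ± 0.38 log2 units lower in pericyte-like than in VSMC-like cells (n = 4; edgeR adjusted p = 9.86e-07). Ndufa4l2 therefore held 98.0% to 100% of the UMIs of the pair in the cortical surface pericyte-like cells and 96.4% and 98.7% in bone, against 21.8% and 21.2%, and 32.7% and 36.4% in bone, in VSMC-like cells. The Ccl19-positive class lay at 95.2% to 98.1% on the cortical surface and at 56.4% and 79.5% in bone.

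Higd1b was at 1378, 1682, 1471 and 1858 CPM in cortical surface pericyte-like cells and at 728 and 837.8 CPM in bone. Casq2-positive cells held 761.2, 945.1 and 1141 CPM, and 195.8 and 350.5 CPM in bone. These too lay below the pericyte-like values. Ccl19-positive cells held 598.3, 651.4, 785.7 and 814.2 CPM on the cortical surface and 109.4 and 114.1 CPM in bone. VSMC-like cells held 106.9 and 104.3 CPM on the cortical surface and 18.93 and 19.78 CPM in bone. In all 4 classes every cortical surface value lay above both bone-associated values.

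Higd1b exceeded the VSMC-like level by 4.15 ± 0.32 log2 units (SE, n = 4; edgeR adjusted p = 1.09e-06) and the Ccl19-positive level by 1.59 ± 0.21 (n = 6; edgeR adjusted p = 3.77e-05). The latter did not pass in a fit without the library as a block (1.36, edgeR adjusted p = 0.116). Over Casq2-positive cells the excess was 0.98 ± 0.18 (n = 5; edgeR adjusted p = 0.000726), under the fold limit. The paralogue Higd1a was 1.80 ± 0.21 log2 units lower in pericyte-like than in VSMC-like cells (edgeR adjusted p = 3.8e-05). Higd1b held 94.0% to 98.2% of the UMIs of the pair in cortical surface pericyte-like cells and 94.2% and 92.7% in bone, and 30.6% and 31.5% in the cortical surface VSMC-like cells against 12% and 12.7% in bone.

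**Figure D3:**
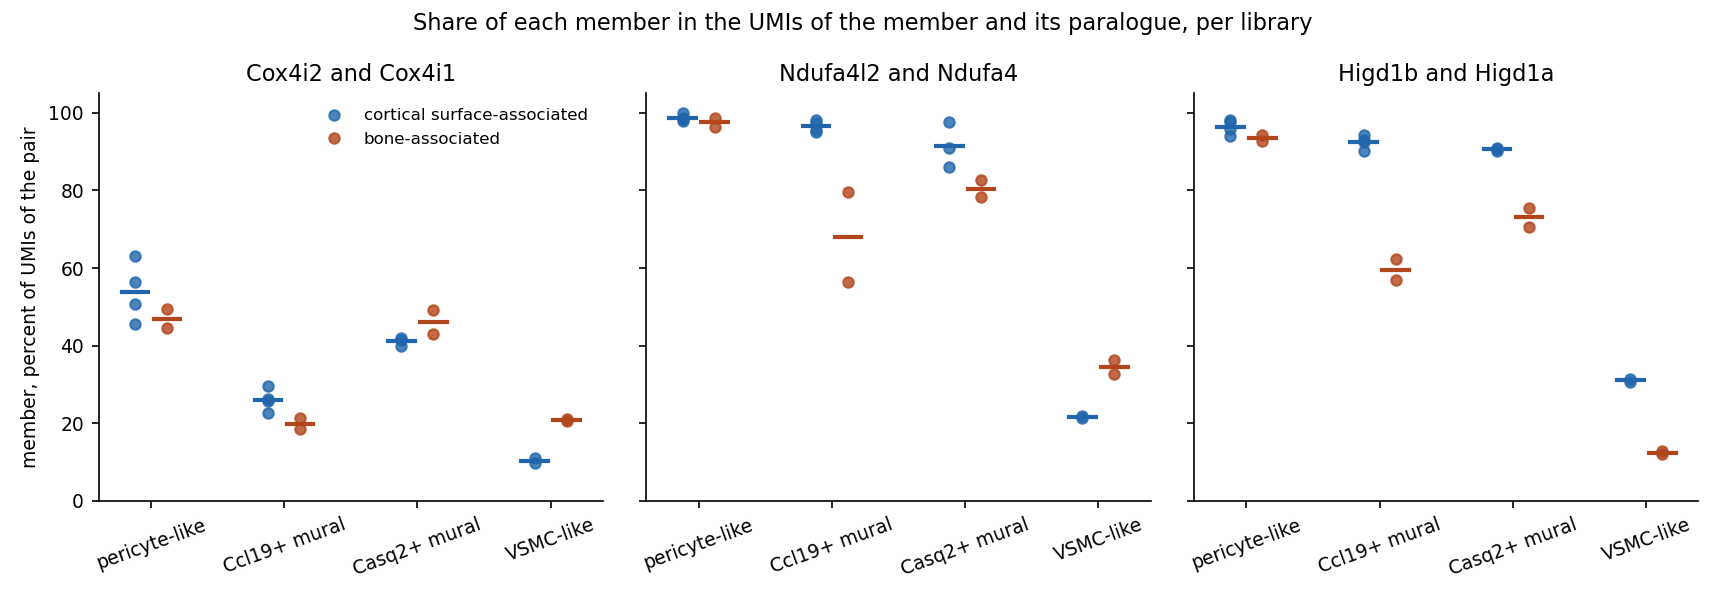
Share of each mitochondrial gene in the summed UMIs of the gene and its paralogue (percent), with a point for each library and a bar for the mean. Ndufa4l2 and Higd1b hold over 92% in all pericyte-like libraries and under 37% in all VSMC-like libraries, while Cox4i2 holds 44.4% to 63.1% and 9.6% to 21.0%.

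Art3 was at 369.3, 321.6, 405.4 and 344.5 CPM in cortical surface pericyte-like cells and at 179.8 and 253.1 CPM in bone. In Ccl19-positive cells it was at 117.9, 111.3, 93.71 and 146.7 CPM, and 23.6 and 72.5 CPM in bone. All lay below the pericyte-like values. Casq2-positive cells held 93.2, 92.53 and 168.3 CPM, and 18.83 and 44.73 CPM in bone. VSMC-like cells held 2.908 and 2.436 CPM on the cortical surface, and 7.327 and 14.39 CPM in bone. The Ccl19-positive and Casq2-positive ranges overlapped in both preparations, and both lay below the pericyte-like cells. The excess of pericyte-like cells was 5.03 ± 0.39 log2 units over VSMC-like (SE, n = 4; edgeR adjusted p = 1.38e-06), 1.95 ± 0.24 over Casq2-positive (n = 5; edgeR adjusted p = 1.25e-05) and 1.67 ± 0.17 over Ccl19-positive cells (n = 6; edgeR adjusted p = 1.75e-06). With thinned cells the last was 1.24 and under the fold limit.

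The 7 genes were found together in single pericyte-like cells more often than in the other mural classes. At 1500 UMIs per cell the median pericyte-like cell held UMIs of 5 of the 7 genes in both preparations, and 71.6% (159 of 222) and 65.4% (51 of 78) held 5 or more. In the Ccl19-positive class 30.8% and 11.6% did so, in the Casq2-positive class 15.9% and 2.63%, and in VSMC-like cells none of 261 and 1 of 267. Of the B cell-like cells 99.2% and 98.7% held none of the 7. Art3 was the gene most often missing, with a UMI in 32.9% and 26.9% of the thinned pericyte-like cells. Whether the genes met in a cell more often than the share of each alone would give was not tested.

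Within pericyte-like cells, no gene of the 7 was called between preparations, where 6.39% of 7110 genes were called (edgeR; 1198 genes at an unadjusted p under 0.05). Higd1b came nearest, with a cortical surface excess of 0.93 ± 0.31 log2 units (SE, n = 4 and 2; 95% interval 0.30 to 1.55; edgeR adjusted p = 0.0611, unadjusted p = 0.00489). It was the only one of the 7 with an unadjusted p under 0.05, and DESeq2 gave it an adjusted p of 0.0219 at a difference of 0.88, under the fold limit, and called none of the 7. Kcnj8, Ndufa4l2, Cox4i2 and Art3 had differences of 0.42 to 0.55 towards the cortical surface and Abcc9 and Rgs5 of -0.61 and -0.53, with intervals that reached -1.22 for Abcc9 and 1.16 for Cox4i2, so differences of about that size were not excluded at this number of libraries. For Kcnj8, Higd1b, Ndufa4l2, Cox4i2 and Art3 all 4 cortical surface values lay above both bone-associated values, for Ndufa4l2 only narrowly (1703 against 1673 CPM). How many of all tested genes separate in this way was not counted, so this is a description and not support for a difference. Bone-associated libraries 1 and 2 held 18 and 61 pericyte-like cells, and the differences depended on which of them was kept. Without library 1 they were 0.017 for Ndufa4l2 and -0.095 for Abcc9, and without library 2 they were 1.10 for Ndufa4l2 and 1.07 for Art3. None of the 7 was called when any 1 library was left out.

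In the Ccl19-positive class Higd1b and Ndufa4l2 were called higher on the cortical surface, where 12.1% of 8459 genes were called. The log2 differences were 2.43 ± 0.27 for Higd1b (SE, n = 4 and 2; edgeR adjusted p = 4.71e-07) and 1.63 ± 0.29 for Ndufa4l2 (edgeR adjusted p = 0.000213). Neither was called when each library was clustered on its own (1.20 with edgeR adjusted p = 0.14, and 0.85 with 0.129), and without bone-associated library 1 Ndufa4l2 fell to 1.22, under the fold limit. Abcc9 was higher in bone, by 0.83 ± 0.24 (edgeR adjusted p = 0.0175), and Art3 higher on the cortical surface, by 0.99 ± 0.34 (edgeR adjusted p = 0.0493), both under the fold limit. Leaving out bone-associated library 2 gave 2.12 for Art3, which was called. Kcnj8, Rgs5 and Cox4i2 had differences of 0.41, 0.47 and 0.59 that did not pass.

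In VSMC-like cells, with 2 libraries on each side, 4 of the 7 were called, where 6.13% of 8348 genes were called. Abcc9, Art3 and Kcnj8 passed the 10% detection filter through bone alone. There 23.8%, 10.0% and 10.8% of cells held a UMI, against 0.38%, 3.04% and 2.66% on the cortical surface. Genes that pass in this way are those higher in bone, so the calls of Abcc9 and Art3 add no independent support. Rgs5 was 2.52 ± 0.28 log2 units (SE) and Higd1b 2.32 ± 0.28 higher on the cortical surface (edgeR adjusted p = 1.04e-06 and 2.62e-06). Both differences were lost when each library was clustered on its own (-0.04 and 0.41). Abcc9 was called higher in bone (edgeR adjusted p = 2.81e-06), on 96 UMIs among 3306236 in bone against 3 among 3428435 on the cortical surface. The 96 UMIs lay in 64 of 269 cells and the 3 UMIs in 1 of 263. The ratio was 33.2, with an exact 95% counting interval of 11 to 164 that takes UMIs as independent. That interval covers neither the spread between cells nor that between libraries. Art3 was called higher in bone as well, by 2.14 ± 0.57 (edgeR adjusted p = 0.0168), on 36 against 9 UMIs. That call was lost with DESeq2 (adjusted p = 0.147), with total UMIs for scaling, with separate clustering, and without either cortical surface library. Cox4i2 (-1.25 ± 0.24, edgeR adjusted p = 0.000686) and Ndufa4l2 (-0.81 ± 0.24, edgeR adjusted p = 0.0317) were higher in bone but under the fold limit.

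**Figure D4:**
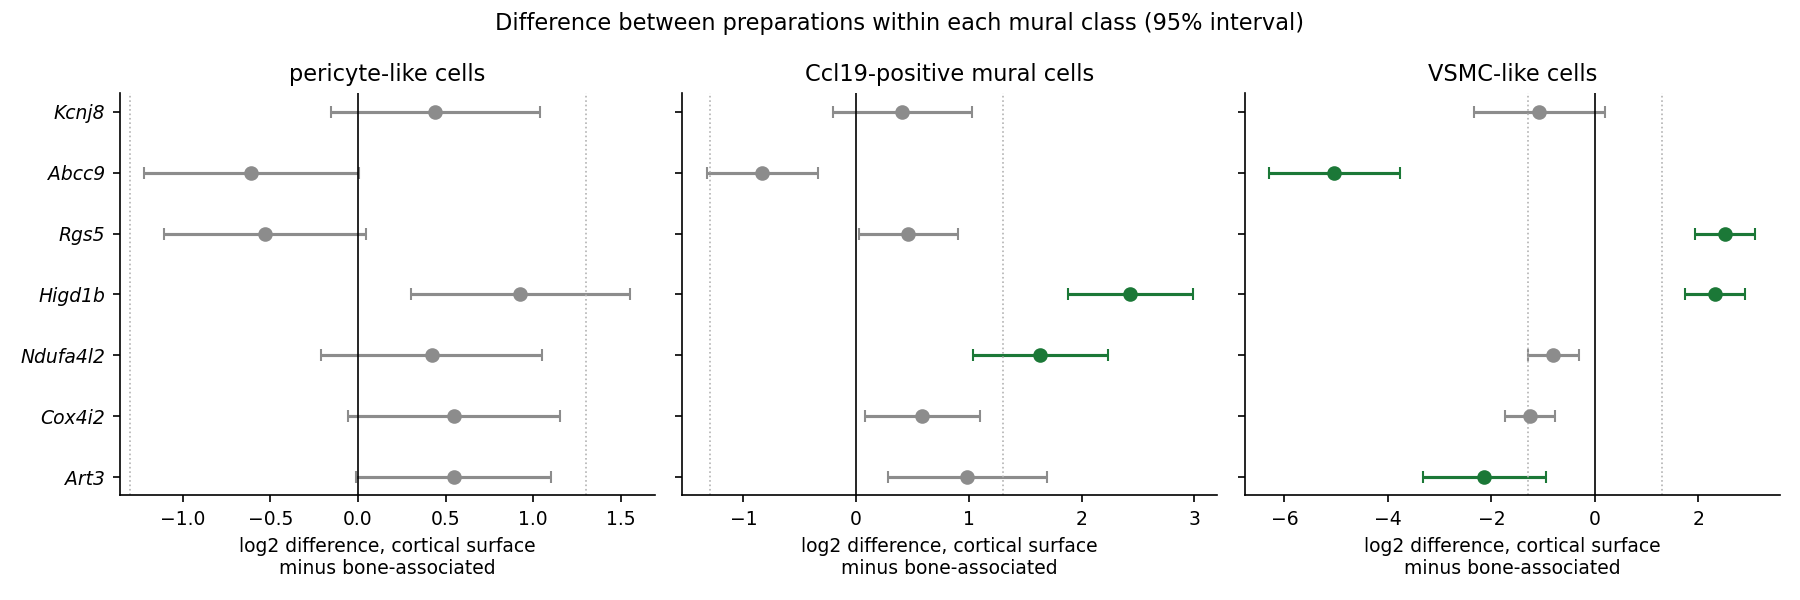
Log2 difference between cortical surface-associated and bone-associated libraries (positive is higher on the cortical surface) for each gene within pericyte-like, Ccl19-positive mural and VSMC-like cells, with 95% intervals. Green marks called differences, dotted lines the fold limit of 1.3, and each panel has its own axis range. None of the 7 is called in pericyte-like cells, 2 are in the Ccl19-positive class and 4 in VSMC-like cells.

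The contrast of pericyte-like with VSMC-like cells itself differed between preparations for 6 of the 7 genes, where 3.65% of 8162 genes were called in the interaction test. From mean CPM with 0.5 added, Rgs5 was 2.71 log2 units higher in pericyte-like than in VSMC-like cells on the cortical surface and 5.84 higher in bone, an interaction of -3.09 ± 0.26 (SE). Higd1b also had the larger contrast in bone (3.48 against 4.97, interaction -1.51 ± 0.31). Abcc9 (9.0 against 5.12, interaction 4.43 ± 0.58), Art3 (6.41 against 3.92, 2.62 ± 0.56), Cox4i2 (3.13 against 1.20, 1.92 ± 0.26) and Kcnj8 (7.47 against 6.11, 1.56 ± 0.48, edgeR adjusted p = 0.0304) had it on the cortical surface, as did Ndufa4l2 under the fold limit (3.18 against 1.99, 1.23 ± 0.26). The fit had 2 residual degrees of freedom from 8 sums and gave genes of like abundance 1 common spread, so its p-values, down to 1.15e-28 for Rgs5, rest on that assumption. The Kcnj8 call was lost without the library block (edgeR adjusted p = 0.359), without cortical surface library 2 (0.48, edgeR adjusted p = 0.865) and without bone-associated library 2 (0.94, edgeR adjusted p = 0.62). Higd1b was lost without the block (edgeR adjusted p = 0.0563) and Art3 without bone-associated library 2 (edgeR adjusted p = 0.0578). Without cortical surface library 1 the interaction rose to 7.23 for Abcc9 and 3.30 for Kcnj8. The 3 Abcc9 UMIs of the cortical surface VSMC-like class were all in 1 cell of that library. Ndufa4l2 passed the fold limit without cortical surface library 2 (1.34, edgeR adjusted p = 0.0213) and without bone-associated library 2 (1.60). The interaction was not run with each library clustered on its own, under which the VSMC-like differences of Rgs5 and Higd1b between preparations were lost.

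In the named classes other than the mural ones the genes were scarce. Clusters that were left unnamed, with 1257 of the 8680 kept cells, are not covered here. In the 11 other cortical surface and 10 other bone-associated classes, the median class held at most 0.318% of the pericyte-like level of each gene. Levels of over 3% were found for Art3 in Schwann-like and bone-associated endothelial-like cells and for Ndufa4l2 in mesenchymal-like cells. The erythroid class of the cortical surface, where the level of each of Kcnj8, Abcc9, Rgs5, Higd1b and Cox4i2 was 1.39% to 2.37% of that in pericyte-like cells, was the highest non-mural class for those 5 genes.

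Art3 was higher in the bone-associated Schwann-like cells than in pericyte-like cells, at 632.1 and 773.4 CPM in the 2 libraries against 179.8 and 253.1 CPM, with no overlap. The class mean was 325% of the pericyte-like one. It held 16 and 69 cells in 2 clusters, 1 led by Cdh19, Scn7a and Ptprz1 (630 CPM) and the other by the myelin genes Prx and Cldn19 (948.9 CPM), and 79 of its 85 cells (92.9%, exact 95% interval 85.3% to 97.4%) had an Art3 UMI. In B cell-like cells 0.524% did, at median depths of 3538 UMIs in the Schwann-like and 4840 in the B cell-like cells. Of those 79 cells, 5 held a UMI of another of the 7 genes, and Abcc9 and Higd1b were at 0 in all 85 cells, which allows a share of cells with a UMI of up to 3.53%. No class of the cortical surface was called Schwann-like. The overlapping chemokine gene Cxcl10 had 65 UMIs in these cells and 1895 in the Ccl19-positive class of bone, where Art3 had 268 and 72.

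**Figure D5:**
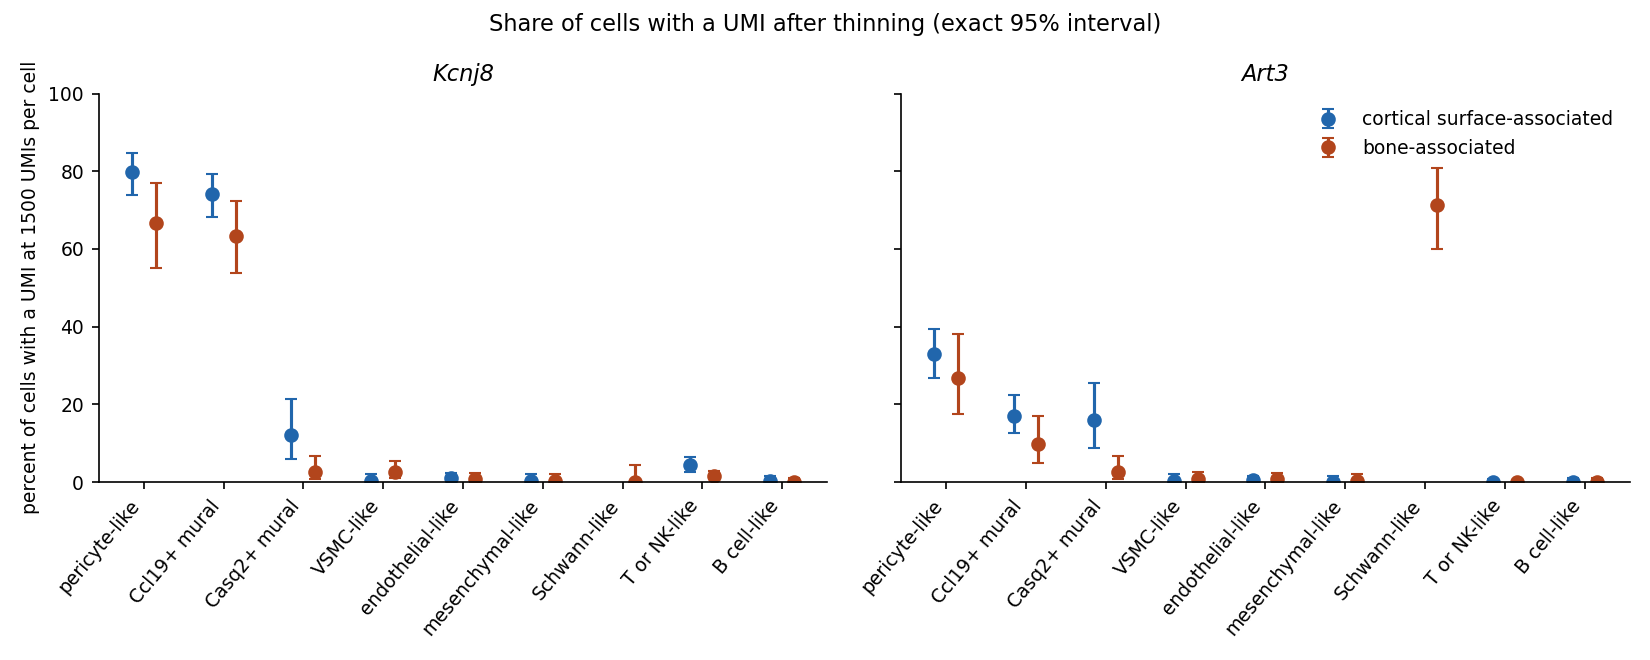
Percent of cells with a UMI of Kcnj8 (left) and Art3 (right) after thinning each cell to 1500 UMIs, with exact 95% intervals that cover counting error only, in blue for cortical surface-associated and in red for bone-associated cells. Art3 is found in 71.2% of Schwann-like and 32.9% and 26.9% of pericyte-like cells, and Kcnj8 in 4.27% and 1.48% of T or NK-like cells.

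Kcnj8 was found without its partner in lymphocytes. The T or NK-like class held 14.84, 31.18, 29.41 and 27.55 CPM in the 4 cortical surface libraries and 11.34 and 5.388 CPM in bone, all above every B cell-like library (0 to 4.497 CPM). The cortical surface values lay above those from bone in all 4 libraries. A Kcnj8 UMI was present in 72 of 540 cortical surface cells (13.3%, exact 95% interval 10.6% to 16.5%; 4.27% when thinned) and in 21 of 608 bone-associated cells (3.45%, 2.15% to 5.23%; 1.48% when thinned). The B cell-like shares were 0.273% (1 of 366) and 0 of 382, at median depths of 3825.5 and 4840 UMIs against 5923.5 and 6126.5. Abcc9 had no UMI in the 540 and 608 cells. A count of 0 leaves room for 0.556% and 0.493% of cells with an Abcc9 UMI at this depth, which sets no limit on the cells that express it. Of the 72 and 21 cells with Kcnj8, 0 and 1 held a UMI of another of the 7 genes.

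Within the lymphocytes the Kcnj8 share differed between clusters. It was 36.6% of 71 cells in a cortical surface cluster led by Xcl1, Cd160 and Klrb1b, 16.5% in one led by Gzma, Prf1 and Klra8, and 13.1% of 222 cells in one led by Cd8a, Cd3e and Trac. In bone it was 9.38% of 128 cells in a cluster led by Klra8, Gzma and Ncr1 and 8.82% of 102 cells in one led by Cd8a, Cd160 and Xcl1, while a cluster led by Cd163l1, Trdc and Il23r (166 cells) held no Kcnj8 UMI. The cells with Kcnj8 all fell into these 5 clusters. Clusters without such cells made up differing parts of the class. The one led by Cd163l1 held 166 of the 608 cells from bone. On the cortical surface the one led by Cd163l1 held 44 of 540. The part of this make-up in the difference between preparations was not tested. The clusters were compared after their values were seen.

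Ndufa4l2 stood at 108, 158.8, 84.11 and 129 CPM in the cortical surface mesenchymal-like cells and at 54.2 and 38.75 CPM in bone, with no overlap. These means were 6.25% and 3.54% of the pericyte-like ones. Of the cortical surface mesenchymal-like cells 44.7% held a UMI (18.5% when thinned) and of the bone-associated ones 22.2% (4.63% when thinned), against 0.273% and 1.05% of B cell-like cells. Kcnj8 and Art3 were at 0 in at least 1 library of the same cortical surface class.

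In endothelial-like cells the low levels came partly from a few cells. In the cortical surface cluster led by Mfsd2a and Slco1c1, 10 of 227 cells carried UMIs of at least 2 different pericyte markers. Without those cells the 7 genes fell from between 1.07% and 2.46% to at most 0.644% of the pericyte-like level. In the cluster led by Gkn3 and Gja5, Rgs5 fell from 522 to 4.12 CPM when 4 of 79 such cells were left out. Abcc9 and Art3 in the bone-associated cluster led by Btnl9 and Gpihbp1 did not fall: they were 28.9 and 17.9 CPM in 231 cells, and 29.5 and 18.4 CPM without 6 such cells, while without those cells Rgs5 was 6.14 CPM and Higd1b 0. The bone-associated cluster led by Selp, F8 and Sele, in which no cell met that limit, held 28.0 CPM of Kcnj8, 16.0 CPM of Abcc9 and 7.99 CPM of Rgs5 in 94 cells. Abcc9 also reached 50.95 CPM in a bone-associated mesenchymal-like cluster led by Inmt, Apod and Clec3b, with 63 UMIs in 91 cells, where Kcnj8 was at 14.56 CPM.

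The families around these genes were described with gene lists. Of 33 ion channel genes of mural cells, 24 were tested between pericyte-like and VSMC-like cells. Of these, 5 were called higher in pericyte-like cells (among them Kcnj8, Abcc9, the calcium channel gene Cacna1d and the chloride channel gene Ano1) and 8 lower, where 16.0% of all tested genes were called in either direction, and the median log2 difference was -0.45 against -0.00356 over all genes. Those lower included Kcnma1 and Kcnmb1, the pore and accessory subunits of the large-conductance calcium-activated potassium channel (-6.06 ± 0.58 and -4.11 ± 0.42, SE), and the ryanodine receptor Ryr2 (-9.22 ± 0.76). Against the Ccl19-positive class, 3 of 16 tested channels, Abcc9 and Kcnj12 among them, were called higher and none lower, where 5.18% of all tested genes were called. The channels called in pericyte-like cells between preparations were Kcnj12 and Trpc1 (higher on the cortical surface, 1.88 ± 0.50 and 1.58 ± 0.44) and Kcne4 and Cacnb3 (higher in bone, -1.50 ± 0.34 and -2.47 ± 0.71), of 16 tested, with a list median of 0.14, where 6.39% of all tested genes were called.

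Of 34 G protein signalling regulators and receptors, 21 were tested between pericyte-like and VSMC-like cells, with 7 called higher and 2 lower (16.0% of all genes were called) and a median of 0.83. Besides Rgs5, the higher genes were Rgs10, Rgs16, the endothelin receptor Ednrb (7.21 ± 0.55), the angiotensin receptor Agtr1a (5.51 ± 0.64), Adra2a and P2ry14, and the lower ones were Rgs17 and the phosphodiesterase Pde3a. P2ry14 is also among the markers that named the pericyte-like class. Between preparations, other regulators of the family moved in pericyte-like cells where Rgs5 did not pass: Rgs2 and Rgs16 were called higher in bone (-4.66 ± 0.65 and -2.25 ± 0.33, edgeR adjusted p = 2.26e-06 and 5.33e-06), with Ednrb and Ptger3, and Gper1 and the thromboxane receptor Tbxa2r higher on the cortical surface (2.97 ± 0.43 and 2.46 ± 0.37), of 23 tested and beside 6.39% of all genes. Rgs2 was also called higher in bone in the Ccl19-positive class (-4.71 ± 0.50) and in VSMC-like cells (-2.21 ± 0.31).

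Of 21 cytochrome c oxidase subunits and Higd proteins, 18 were tested between pericyte-like and VSMC-like cells. Only Cox4i2, Ndufa4l2 and Higd1b were called higher, and Cox5a (-1.35 ± 0.21), Ndufa4 and Higd1a were called lower, beside 16.0% of all genes, with a median of -0.79. Between preparations none of 19 was called in pericyte-like cells (edgeR, with 2 of them, Higd1b and Cox7a2l, at an unadjusted p under 0.05), where 6.39% of all genes were. Of 26 targets of hypoxia-inducible factor, a list that shares Ndufa4l2, Cox4i2 and Higd1a with the last, 20 were tested between pericyte-like and VSMC-like cells. Ndufa4l2 and Cox4i2 were called higher and Ndrg1, Ddit4 and Higd1a lower, beside 16.0% of all genes, with a median of -0.05. In the Ccl19-positive class, where Ndufa4l2 was higher on the cortical surface, Vegfa (-4.19 ± 0.42), Ndrg1, Hk2 and Pfkfb3 of the same list were called higher in bone, of 22 tested and beside 12.1% of all genes. Of the 6 mono-ADP-ribosyltransferase genes, Art3 alone was detected widely enough to be tested in these classes.

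The genes whose levels were most like those of the 7, by Pearson correlation of log2(CPM + 1) over 74 library-by-class sums of 18 classes and 14836 genes, included Abcc9 (0.896) and Higd1b (0.861) for Kcnj8. For Abcc9 they included Steap4 (0.929) and Lin7a (0.901). Rgs5 was most like Higd1b (0.957), which was higher than any other of the 21 pairs among the 7 genes. The lowest pair was Ndufa4l2 with Art3 (0.714). Art3 was most like Ndst3 (0.89), Tspan15 (0.872) and the dystrophin gene Dmd (0.861). These sums share libraries and classes and are given as a description.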

How the data were processed

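Single-cell libraries were made with 10x Chromium 3' chemistry from 4 cortical surface-associated and 2 bone-associated preparations of mouse tissue. The authors deposited raw UMI counts per gene and cell barcode for each library, aligned to mm10 and counted with Cell Ranger (version 3 in the submitters' processing notes, 6.1.2 in the matrix headers). Whether the counting used strand is not given in the sources used here. These counts are the only unit used.

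Barcodes were kept from 500 detected genes upwards and up to 10% UMIs of mitochondrial genes, which with the removal of 124 predicted doublets (1.41% of the cells that passed) left 8680 of 17560 barcodes, with 739 to 2452 cells per library. Each preparation was clustered (Leiden, resolution 1.5, leidenalg 0.10.2) on 2000 variable genes, 30 principal components and 15 neighbours without the 7 genes. Clusters were named from at least 3 markers present in 20% or more of the cells at 2-fold or more. UMIs were summed per class and library with at least 10 cells. Sums were compared with edgeR 4.0.16 (TMM scaling, quasi-likelihood F test, two-sided, Benjamini-Hochberg adjustment) over genes found in at least 10% of the cells of either class, with the library as a block between classes. A call needed an adjusted p under 0.05 and a log2 difference of at least 1.3. Standard errors and 95% intervals are from these fits. To compare shares of cells, each cell was thinned to 1500 UMIs, which left out 227 cells. Shares carry exact (Clopper-Pearson) intervals. A count of 0 was given the limit of 3 counts.

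The 7 genes, the gene lists and the tests were chosen with earlier results of these data known. Named genes are the 7, their paralogues and, of each list, genes called in a comparison (at most 8 by adjusted p), and like genes are the 3 of highest Pearson correlation. The scripts were tested on simulated counts. Alternatives were DESeq2 1.42.0, other scalings, filters and clusterings, thinning, other blocks and leaving out each library. The Casq2-positive comparisons, the endothelial-like cells with pericyte markers left out and the fits without the hemoglobin-rich libraries were added after seeing the data. A few genes that these rules would name are not reported here.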

Additional observations from a re-analysis of the deposited data

Results flagged for a closer look

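The contrast of pericyte-like with VSMC-like cells differed between preparations, by the test of the difference itself, for 6 of the 7 genes. As log2 differences of the contrast, cortical surface minus bone-associated, the values were -3.09 for Rgs5, -1.51 for Higd1b, 4.43 for Abcc9, 2.62 for Art3, 1.92 for Cox4i2 and 1.56 for Kcnj8. The Abcc9 value rests on 3 UMIs of 1 cell in the cortical surface VSMC-like class. The Kcnj8 value was not past the limits without the library as a block, without cortical surface library 2 or without bone-associated library 2. Both rose when cortical surface library 1 was left out, to 7.23 for Abcc9 and 3.30 for Kcnj8. Higd1b did not pass without the block (edgeR adjusted p = 0.0563), nor Art3 without bone-associated library 2 (edgeR adjusted p = 0.0578). With each library clustered on its own, the differences of Rgs5 and Higd1b between preparations in VSMC-like cells were lost (-0.042 and 0.41), and the difference of the contrast was not run under that clustering.

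In 1 of 33 groups of 4 libraries tested for a value standing apart, where chance gives about 5%, Abcc9 held 99.5% of the summed Abcc9 and Abcc8 UMIs in the pericyte-like cells of cortical surface library 4, against 100% in the other 3. The gap is a single Abcc8 UMI.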

How the results depend on the processing

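Of 984 log2 differences of the 7 genes under other settings, 940 kept their direction and their side of the limits, 22 passed them anew, 17 no longer passed and 5 reversed. The setting without a fold limit used the main fit again, so its differences could not change. Some of the 22 passed only because that limit was dropped. All 5 reversals were of differences between preparations. With each library clustered on its own they were Kcnj8 (-0.055), Rgs5 (-0.22) and Cox4i2 (-0.13) in the Ccl19-positive class and Rgs5 (-0.042) in VSMC-like cells, and without bone-associated library 1 Kcnj8 in the Ccl19-positive class (-0.11, with 1.20 as the highest value when a library was left out). The Rgs5 difference in VSMC-like cells was called in the main fit, at 2.52, and stayed at 2.06 to 2.85 when a library was left out. Its reversal is therefore also a lost call, and is not among the 17. The other reversed differences were not called in the main fit. The cause of the reversals was not tested. In VSMC-like cells Abcc9, Art3 and Kcnj8 fell under the detection filter with thinned cells, as did Art3 with up to 20% mitochondrial UMIs or with doublets kept, and Art3 and Kcnj8 without bone-associated library 2.

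Thinning each cell to 1500 UMIs lowered the count of called genes in the 7 comparisons it was run for. It also left fewer genes past the detection filter, so these counts come from fewer tested genes. Between preparations, 454 became 172 in pericyte-like, 1025 became 364 in Ccl19-positive and 512 became 134 in VSMC-like cells. Tested genes fell there from 7110 to 3038, from 8459 to 2917 and from 8348 to 2331. Thinning gave 669 of 1307 for pericyte-like against VSMC-like, 146 of 387 against Ccl19-positive and 295 of 589 against Casq2-positive cells, and 154 of 374 for Casq2-positive against VSMC-like cells. In the same order, tested genes fell from 8162 to 2846, from 7466 to 2814, from 7683 to 2898 and from 8163 to 2461. With no fold limit the counts were 2203, 753, 1002 and 1059 in these 4 comparisons and 811 between preparations in VSMC-like cells. DESeq2 gave 250 in pericyte-like cells between preparations, and clustering each library on its own gave 539 in the Ccl19-positive class. Under that clustering the median level over the 7 genes in cortical surface pericyte-like cells, averaged over libraries, was 1222 CPM, against 1338 CPM. The former is an average over 3 libraries and the latter over 4, so they cover differing sets of libraries.

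Leaving out 1 library gave 276 to 470, 825 to 1156 and 448 to 570 calls between preparations in pericyte-like, Ccl19-positive and VSMC-like cells, 191 to 295 for the interaction, 1238 to 1295 for pericyte-like against VSMC-like, 327 to 426 against Ccl19-positive, 524 to 621 against Casq2-positive cells and 344 to 406 for Casq2-positive against VSMC-like cells. The lowest count in pericyte-like cells, 276, was without bone-associated library 2.

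Between classes, fits without the library as a replicate block gave 153 calls against Ccl19-positive cells, 141 for the interaction and 194 for Casq2-positive against VSMC-like cells. Between preparations the libraries share only replicate numbers 1 and 2, with correlations of deviations of 0.062 and 0.154, 0.154 and 0.147, and 0.359 and 0.359 in the 3 classes, and a replicate block gave 402, 1022 and 562 calls. Without the hemoglobin-rich libraries the 7 genes lost no call.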
